A study of Homo sapiens with 12 samples.

Results

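The genes of condensin and of the core of the SMC5/6 complex were followed through all tables of unique molecular identifiers (UMIs) of the series. They are 10 genes chosen by name, namely SMC2, SMC4, NCAPD2, NCAPD3, NCAPG, NCAPG2, NCAPH, NCAPH2, SMC5 and SMC6, of 32945 Ensembl identifiers in these tables, and all 10 had an identifier. The series introduced LAST-seq, a single-cell RNA-seq assay that tags and linearly amplifies RNA, and each UMI stands for 1 tagged molecule. CEL-seq2, an older assay with UMIs and linear amplification, served as the reference.

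HEK293T, a human embryonic kidney line, was profiled by LAST-seq as live sorted single cells in 2 libraries of 10 cells, the first with the A60 RNA spike-in mix and the second with the ERCC mix. HEK293T also gave 1 LAST-seq library of 10 aliquots of 15 pg total RNA and 1 of 10 lysate wells, and by CEL-seq2 there were 2 libraries of 10 cells and 1 of 10 lysate wells. The first CEL-seq2 cell library was labelled with both mixes and the second with ERCC. eHAP1 is a haploid human line, which per the study's methods was kept haploid upon subcloning with 10-deacetylbaccatin III in the medium. Its WT and SCC4 KO cells were profiled by LAST-seq alone, with pools of 80 indexed cells in 2 batches per genotype. SCC4 is the protein name of MAU2, the partner of NIPBL in the complex that loads cohesin onto DNA. The knockout was made with a Cas9 ribonucleoprotein, and cells were grown out from single sorted cells, sorted again as live haploid G1 cells by DNA content, and given as 1 sample per genotype. A genotype here is therefore 1 sample in 2 batches, and an effect of the deletion and of the clone that carries it cannot be told apart. The p-values of that comparison measure the spread between batches only.

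Condensin is a ring-shaped complex that extrudes loops of DNA and compacts chromosomes before they divide. SMC2 and SMC4 are the ATPases that form its arms. They pair either with NCAPD2, NCAPG and NCAPH, which make condensin I and act once the nuclear envelope is gone, or with NCAPD3, NCAPG2 and NCAPH2, which make condensin II and are in the nucleus throughout the cell cycle. SMC5 and SMC6 are the ATPases of another ring of the same family, known for DNA repair and for silencing of viral DNA, while cohesin, which SCC4 helps to load, is the ring built on SMC1A and SMC3.

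Several of these genes are known for transcription that peaks late in the cell cycle, so the bases before the start of transcription are shown for the genes on which the results turn: SMC4, NCAPH and SMC5, which were called in the knockout, and NCAPD2 and NCAPG, which were not. The RefSeq table on GRCh38.p14 held a promoter of 9 of the 10 genes. The lines give 250 bases before the first listed start, 5′ to 3′, with motifs in capitals:
SMC4, chr3:160399400-160399649, plus strand: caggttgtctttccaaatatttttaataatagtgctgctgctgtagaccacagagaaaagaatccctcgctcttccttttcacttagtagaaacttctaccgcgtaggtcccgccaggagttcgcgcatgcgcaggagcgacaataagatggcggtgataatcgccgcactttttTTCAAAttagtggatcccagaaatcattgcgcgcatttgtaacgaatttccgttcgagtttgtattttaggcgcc
NCAPD2, chr12:6493852-6494101, plus strand: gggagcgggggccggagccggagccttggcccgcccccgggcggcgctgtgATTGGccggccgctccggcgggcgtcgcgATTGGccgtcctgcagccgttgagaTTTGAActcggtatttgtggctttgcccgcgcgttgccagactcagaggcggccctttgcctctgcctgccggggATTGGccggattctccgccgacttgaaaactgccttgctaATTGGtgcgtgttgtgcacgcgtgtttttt
NCAPG, chr4:17810729-17810978, plus strand: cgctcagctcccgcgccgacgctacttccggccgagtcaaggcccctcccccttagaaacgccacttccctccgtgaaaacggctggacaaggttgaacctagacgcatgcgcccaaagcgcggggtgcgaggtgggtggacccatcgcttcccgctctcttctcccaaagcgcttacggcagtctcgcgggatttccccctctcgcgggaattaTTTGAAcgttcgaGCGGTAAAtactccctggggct
NCAPH, chr2:96335516-96335765, plus strand: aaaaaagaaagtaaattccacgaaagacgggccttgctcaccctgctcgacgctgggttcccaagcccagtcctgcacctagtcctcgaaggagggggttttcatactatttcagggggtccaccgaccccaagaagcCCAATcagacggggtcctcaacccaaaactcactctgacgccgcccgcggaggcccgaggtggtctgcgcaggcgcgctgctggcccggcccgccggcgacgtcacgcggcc
SMC5, chr9:70258728-70258977, plus strand: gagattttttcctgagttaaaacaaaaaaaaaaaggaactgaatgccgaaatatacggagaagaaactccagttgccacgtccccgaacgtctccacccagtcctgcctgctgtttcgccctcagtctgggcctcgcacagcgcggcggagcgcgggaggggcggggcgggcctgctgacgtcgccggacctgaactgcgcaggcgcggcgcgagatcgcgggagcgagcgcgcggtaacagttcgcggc
The motifs were searched on both strands of this window: TTTGAA, the core of the cell cycle element CHR, TTTNNCGC, a core of the E2F element, and CCAAT. Those in capitals read TTCAAA or TTTGAA for CHR, GCGGTAAA for E2F and CCAAT or ATTGG for CCAAT. The first promoters of 3 of the 9 genes held TTTGAA (SMC4, NCAPD2 and NCAPG), against 13.3% of all 35116 promoters of the table. TTTNNCGC stood in 2 of the 9 (NCAPG and SMC6), against 5.92% of all, and CCAAT in 2 of the 9 (NCAPD2, with 4 matches, and NCAPH), against 32.0%. In the window of SMC5 printed above no match was found. In SMC4 the match lay 75 to 70 bases before the start, in NCAPG 35 to 30 and in NCAPD2 145 to 140. SMC2, SMC4 and NCAPD3 had a second listed promoter as well. The second promoters of SMC2 and SMC4 held none of the 3 motifs, so the match of SMC4 depends on the start chosen. That of NCAPD3 held 1 match to E2F and 2 to CCAAT. With any listed promoter, each motif stood in 3 of the 9 genes, a count for which no share over all genes was computed. A match is a description of these letters only.

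Of the 10 genes, 4 share exon sequence with other genes in the last 500 bases of the transcript, where molecules tagged at the poly(A) tail are read. In GRCh38, SMC4 (chromosome 3, 160399274 to 160434954, plus strand) shares all 500 with TRIM59 on the opposite strand. NCAPG (chromosome 4, 17810979 to 17844865, plus strand) shares all 500 with LCORL, also opposite, and NCAPD3 (chromosome 11, 134150113 to 134225504, minus strand) shares them with JAM3, opposite as well. NCAPH2 (chromosome 22, 50508224 to 50524780, plus strand) shares 500 bases with the noncoding gene ENSG00000272821 on the same strand and 144 with SCO2. Whether reads were counted by strand is not given in the sources used here, so the levels of these 4 genes are uncertain. SMC2 (chromosome 9, 104094260 to 104141419), NCAPD2 (chromosome 12, 6493356 to 6531955), NCAPH (chromosome 2, 96335766 to 96377091) and SMC5 (chromosome 9, 70258978 to 70354873), all on the plus strand, share no exon base with another gene. The same holds for NCAPG2 (chromosome 7, 158631169 to 158704804) and SMC6 (chromosome 2, 17663812 to 17800242), both on the minus strand.

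The libraries of 10 wells held between 797568 and 1552794 UMIs, and the eHAP1 batches of 73 to 77 cells between 6428477 and 12291125, with median cells between 81736 and 152300 UMIs. The deposited eHAP1 values had 2 features that bear on results from them. First, numbers were missing between values that many cells held. Among genes with a mean of 1.5 to 4 UMIs, at least 8 cells at 1 UMI and at least 8 above 2, no cell held 2 UMIs for 29.9% and 57.6% of genes in WT batches 1 and 2 and for 55.8% and 35.5% in SCC4 KO batches 1 and 2. Of the 10 genes, 6 showed this in at least 1 batch. For NCAPH in WT batch 2, 17 cells were at 0 and 24 at 1, none at 2, 3 or 4, and 15 at 5. Second, the batches of a genotype were closer than counting error allows in the median of genes with many UMIs. Over genes with at least 1000 UMIs, the squared difference between batches divided by its binomial variance had a median of 0.214 for WT and 0.119 for SCC4 KO, where counting error alone gives 0.455, and where the 2 LAST-seq libraries of HEK293T gave 5.12. Below 1000 UMIs the batches were farther apart than counting error, with medians of 1.03 to 3.35 for WT and 0.835 to 2.19 for SCC4 KO over ranges from 10 UMIs up. In WT, 7 of the 10 genes had fewer than 1000 UMIs, and among them the value was 26.8 for NCAPH, 13.8 for NCAPD3 and 1.43 for SMC5. SMC2 and NCAPD2 in WT gave 0.0732 and 0.0769, and SMC4 gave 1.22 in WT and 0.213 in SCC4 KO. The study's methods name ComBat-seq, a batch correction that returns whole numbers and leaves values of 0 and 1 as they are, for a later step with these cells. Whether the deposited values had passed through it is not stated, and its part in these features was not tested. For genes with at least 1000 UMIs the spread between batches may thus understate that between separate measurements, adjusted p-values of comparisons with eHAP1 can be too small, and intervals cover counting error only. The loss of the targeted gene was visible, as given below. HEK293T markers were of little use for telling the lines apart: LIN28B was present in all libraries, and NEFM was at 0 in both WT batches and in LAST-seq HEK293T cells alike. NEFL was at 0 in both WT batches and at 29.5 and 9.94 UMIs per 1000000 UMIs of the library (CPM) in the LAST-seq HEK293T cells. Both NEFL and NEFM had UMIs in both SCC4 KO batches, so NEFL at 0 held for WT and not for eHAP1 as a line. PAX2, LHX1 and INA went the other way, with UMIs in both batches of each genotype. PAX2 and LHX1 were at 0 in the first LAST-seq library of HEK293T cells, and INA in the second. Blood markers summed to at most 7.29 CPM in any library and fibroblast markers to at most 16.5 CPM.

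Levels are given in CPM, from UMIs summed over the cells of a library. They are not divided by transcript length, so they compare a gene between libraries and not one gene with another. All 10 genes had at least 1 UMI in each of the 11 libraries. In both eHAP1 WT batches 9 of the 10 averaged 1 UMI or more per cell, the exception being NCAPG. In SCC4 KO batch 1 there were 6 such genes. Summed over the 10 genes, the level was 676 and 648 CPM in the WT batches, 484 and 496 in the SCC4 KO batches, 350 and 419 in LAST-seq HEK293T cells, and 1444 and 1146 in CEL-seq2 HEK293T cells. SMC4 alone made up much of the difference between the WT and SCC4 KO sums.

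**Figure D1:**
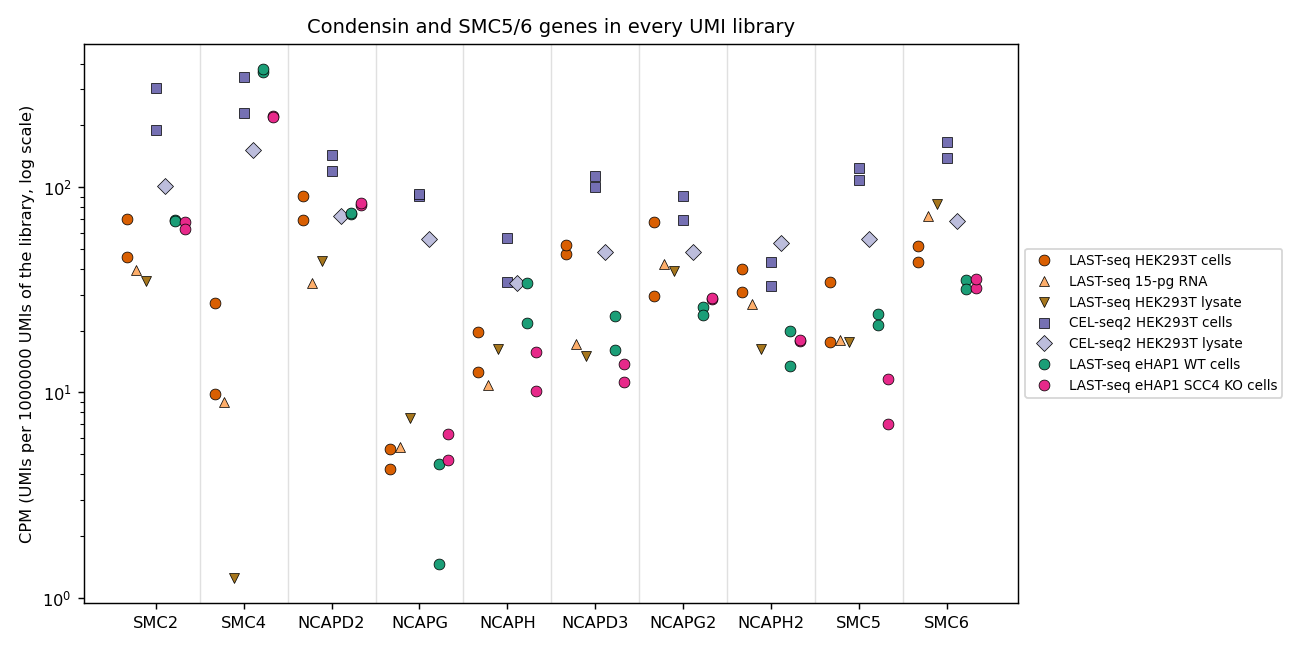
Level of each of the 10 genes (CPM, log axis) in every library, each point being 1 library or batch summed over its cells or wells. SMC4 spans 1.25 in LAST-seq HEK293T lysate to 375 in WT batch 2, and lies at 27.2 or less in every LAST-seq HEK293T library and at 152 or more in every other library.

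The comparison of SCC4 KO with WT asks how the messages of the other ring complexes stand in cells without the cohesin loader. MAU2 (SCC4) itself was measured first. It stood at 44.3 and 41.2 CPM in WT batches 1 and 2 and at 9.18 and 14.5 in SCC4 KO, a fold of 0.209 in batch 1 and 0.352 in batch 2. By edgeR's quasi-likelihood test on UMIs summed per batch, the log2 fold change was -1.87 (SE 0.18, adjusted p = 0.000153). At least 1 UMI was found in 97.3% and 94.7% of WT cells and in 42.9% and 92.1% of SCC4 KO cells. A Cas9 edit can leave part of the message in place, so these values bear on the label only through the fall itself.

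Among the 10 genes, SMC4, NCAPH and SMC5 were lower in SCC4 KO and none was higher at an adjusted p under 0.05. Over all 15587 genes tested, 15.8% were called lower, 12.6% higher and 28.4% in either direction. A count of 3 of 10 genes is thus about the share of any genes in these libraries, and the list as a whole did not stand apart. The median log2 fold change of the 10 genes was -0.09, beside -0.02 for all genes. None of the 10 was past 2-fold lower in both batches, against 5.24% of all genes, and none past 2-fold higher in both, against 5.95%. Between the batches of 1 genotype, 17.8% of genes were past 2-fold in WT and 15.7% in SCC4 KO, and of the 10 genes this was NCAPG in WT and none in SCC4 KO. The values of the genotypes did not overlap for SMC4, NCAPH and SMC5, nor for the uncalled SMC2, NCAPD2, NCAPD3, NCAPG and NCAPG2. The share of all genes without overlap was not computed, so a lack of overlap, where given below, sets no gene apart.

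Of the 2 arms common to both condensins, SMC4 fell and SMC2 was not called. SMC4 stood at 365 and 375 CPM in the WT batches and at 223 and 219 in the SCC4 KO batches, so the genotypes did not overlap and the ratio of batch 1 to batch 2 was 0.974 in WT and 1.02 in SCC4 KO. The fold was 0.610 in batch 1 (95% interval 0.571 to 0.650) and 0.585 in batch 2 (0.557 to 0.614), and the log2 fold change in the joint fit was -0.81 (SE 0.06, adjusted p = 5.03e-05, edgeR). It was called under each alternative and without any 1 batch. Over single cells the median was 32 and 52 UMIs in WT and 18 and 30 in SCC4 KO. TRIM59, the gene opposite its end, was at 1.79 to 3.26 CPM in WT and 1.56 to 3.17 in SCC4 KO. IFT80, also on the opposite strand, shares 100 exon bases with SMC4 but 0 of its last 500. It was at 3.26 and 6.43 CPM in WT and at 20.4 and 11.7 in SCC4 KO (log2 fold change 1.61, adjusted p = 0.0271, edgeR). The part of either gene in the SMC4 values was not tested. SMC2 stood at 69.4 and 68.3 in WT and at 68.0 and 62.6 in SCC4 KO, with a log2 fold change of -0.15 (SE 0.07, adjusted p = 0.146). The values of SMC2 in SCC4 KO lay below both of WT, by a margin within the spread of its SCC4 KO batches.

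Among the subunits of condensin I, NCAPH, the kleisin that closes the ring between the SMC heads, was called lower. It stood at 34.2 and 21.8 CPM in WT and 10.1 and 15.7 in SCC4 KO. The groups did not overlap, but the batches differed: the fold was 0.297 in batch 1 (0.221 to 0.390) and 0.720 in batch 2 (0.593 to 0.871), and the joint log2 fold change was -1.13 (SE 0.26, adjusted p = 0.0121). Without WT batch 1 the log2 fold change was -0.85 and the call was lost (adjusted p = 0.174). The share of cells with an NCAPH UMI was lower in SCC4 KO in batch 1 (41.6% against 100% in WT) and higher in batch 2 (92.1% against 77.3%). The call of NCAPH thus rests on WT batch 1, and its values in WT batch 2 are those with the missing numbers given above. NCAPD2, a HEAT-repeat subunit, was at 74.1 and 75.3 in WT and 81.5 and 84.1 in SCC4 KO, not called (log2 fold change 0.08, SE 0.06, adjusted p = 0.418). NCAPG, the other HEAT-repeat subunit, had few UMIs in eHAP1, between 18 and 73 per batch. It was at 4.48 and 1.46 CPM in WT and at 4.67 and 6.26 in SCC4 KO, and its fold of 4.19 in batch 2 (2.52 to 7.61) stands beside one of 3.02 between the 2 WT batches. LCORL, opposite its end, stood at 123 and 116 in WT and at 52.6 and 51.7 in SCC4 KO (log2 fold change -1.26, adjusted p = 6.15e-06), and its part in the NCAPG values was not tested.

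None of the subunits of condensin II was called. NCAPD3, a HEAT-repeat subunit, came nearest, with 23.6 and 16.1 CPM in WT and 11.2 and 13.7 in SCC4 KO (log2 fold change -0.71, SE 0.24, adjusted p = 0.0569). The groups did not overlap, though the fold was 0.476 in batch 1 (0.355 to 0.627) and 0.852 in batch 2 (0.687 to 1.05), an interval that includes 1. It passed under 6 of 11 alternatives, with DESeq2 (adjusted p = 0.0483) and with the batch number as a replicate block (0.0247) among them, and the adjusted p ranged from 0.0247 to 0.275 over the 11. JAM3, opposite its end, rose (18.9 and 16.9 against 28.8 and 27.3, log2 fold change 0.59, adjusted p = 0.0150), and its part in the NCAPD3 values was not tested. NCAPG2, the other HEAT-repeat subunit, was at 26.1 and 23.8 in WT and 28.6 and 28.7 in SCC4 KO (log2 fold change 0.14, SE 0.12, adjusted p = 0.427). NCAPH2, the kleisin of condensin II, was at 19.96 and 13.4 in WT and 17.7 and 18.1 in SCC4 KO, and the groups overlapped (log2 fold change 0.06, SE 0.22, adjusted p = 0.889).

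Of the SMC5/6 pair, SMC5 was called lower and SMC6 was not. SMC5 stood at 24.0 and 21.4 CPM in WT and at 7.0 and 11.7 in SCC4 KO, without overlap. The fold was 0.294 in batch 1 (0.205 to 0.406) and 0.546 in batch 2 (0.440 to 0.673), and the joint log2 fold change was -1.32 (SE 0.26, adjusted p = 0.00653). Without WT batch 1 the log2 fold change was -1.28 with an adjusted p of 0.104, so the size held and the call did not. A UMI was found in 89.0% and 89.3% of WT cells and in 44.2% and 78.9% of SCC4 KO cells. After thinning every cell to 40000 UMIs the shares were 52.1% and 52.7% in WT and 26.0% and 28.9% in SCC4 KO, and SMC5 was the only 1 of the 10 genes lower in both batches on the unthinned and the thinned share. SMC6 was at 35.2 and 31.8 in WT and 32.4 and 35.7 in SCC4 KO, with overlapping groups (log2 fold change -0.03, SE 0.10, adjusted p = 0.865).

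**Figure D2:**
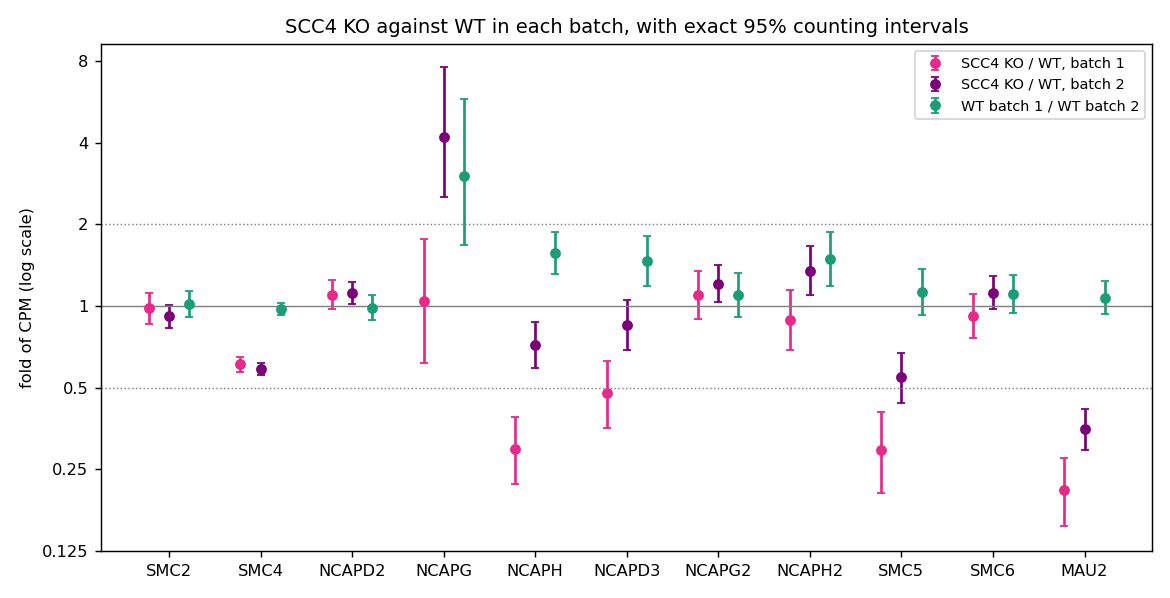
Fold of CPM (log axis) for each of the 10 genes and MAU2, with exact 95% counting intervals: SCC4 KO over WT in batch 1 (pink) and batch 2 (purple), and WT batch 1 over WT batch 2 (green), with dotted lines at 2-fold. SMC4 gives 0.610 and 0.585 in the 2 batches, whereas NCAPH (0.297 and 0.720), SMC5 (0.294 and 0.546) and NCAPG (1.04 and 4.19) differ between batches.

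Related genes were taken as whole lists, to be read beside the 28.4% of all genes called. That share covers genes of all levels, and the share among genes of like level was not computed. For genes with at least 1000 UMIs the adjusted p-values can be too small, as given above, so small changes called below carry that limit. Of the other SMC5/6 subunits and partners, 6 of 7 were tested, of which 1 was higher and 1 lower. The higher one was NSMCE1, a RING-domain subunit, at 125.2 and 124.97 CPM in WT and 214 and 212 in SCC4 KO (log2 fold change 0.70, SE 0.06, adjusted p = 6.15e-05), and the lower one NSMCE3 (log2 fold change -0.56, adjusted p = 0.0199). Of 8 partners of condensin in chromosome compaction, 1 was higher and 3 were lower, among them AURKB, the kinase of the chromosomal passenger complex (196 and 197 against 113 and 115, log2 fold change -0.85, adjusted p = 2.68e-05), and KIF4A, a chromosome-bound kinesin (log2 fold change -0.70, adjusted p = 0.000128). Of 15 G2 and mitosis genes, 14 were tested, of which 5 were higher and 3 lower. The higher ones were BUB1, PLK1, CCNB1, TPX2 and CCNB2, led by BUB1, a kinase of the spindle checkpoint, at 66.4 and 68.4 in WT and 87.7 and 88.6 in SCC4 KO (log2 fold change 0.32, adjusted p = 0.00823). Among the lower ones CDK1, the mitotic kinase, was at 106 and 106 in WT and at 46.2 and 48.3 in SCC4 KO (log2 fold change -1.23, adjusted p = 1.11e-05), and CENPE, a kinetochore motor, was lower too (log2 fold change -0.72, adjusted p = 0.0310). Of 13 S phase genes, 11 were tested, of which 4 were higher (CDC6, MCM5, MCM3 and GINS2) and 2 lower. CDC6, a loader of the replicative helicase, was at 31.8 and 33.4 in WT and 46.8 and 50.7 in SCC4 KO (log2 fold change 0.51, adjusted p = 0.00405), and MCM7, a subunit of that helicase, was lower (549 and 555 against 381 and 381, log2 fold change -0.60, adjusted p = 0.000194). The medians of the 4 lists were 0.13, -0.23, 0.05 and 0.02. Both cell cycle lists held genes called in each direction, and the part of the cell cycle in the values of the 10 genes was not tested.

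The spread between cells was described by the coefficient of variation (CV, the SD over the mean) of CPM, beside genes whose mean lay within 1.25-fold. Cells of 1 library are not replicates, so no test was made. SMC4 varied more than most genes of like mean, with CVs of 0.242 and 0.217 in the WT batches and 0.375 and 0.330 in the SCC4 KO batches, above 92.2%, 94.4%, 98.1% and 98.7% of such genes. The median CV of genes of like mean was 0.201 and 0.170 in WT and 0.265 and 0.207 in SCC4 KO. NCAPD2 went the other way: its CV was 0.418 and 0.424 in WT and 0.383 and 0.257 in SCC4 KO, above 45.9%, 90.7%, 19.3% and 2.25% of genes of like mean. Of the 10 genes, SMC4 alone had a higher CV in SCC4 KO in both batches, and NCAPD2 and NCAPG2 a lower one. Without scaling cells to their total, none of the 10 had a higher CV in SCC4 KO in both batches. The depth of cells ranged from 18004 to 925612 UMIs in WT batch 2 and from 62873 to 320102 in SCC4 KO batch 2. The place among genes of like mean differed between the WT batches for some genes and not for others: NCAPH stood above 4.69% in WT batch 1 and above 94.97% in WT batch 2, and SMC6 above 34.5% and 34.6%. SMC5 stood above 14% and 97.4%, but its CV in WT batch 2 rested on 2 shallow cells: it was 0.978 with all cells and 0.659 without the 2 under 50000 UMIs, where the median of genes of like mean with all cells was 0.673.

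**Figure D3:**
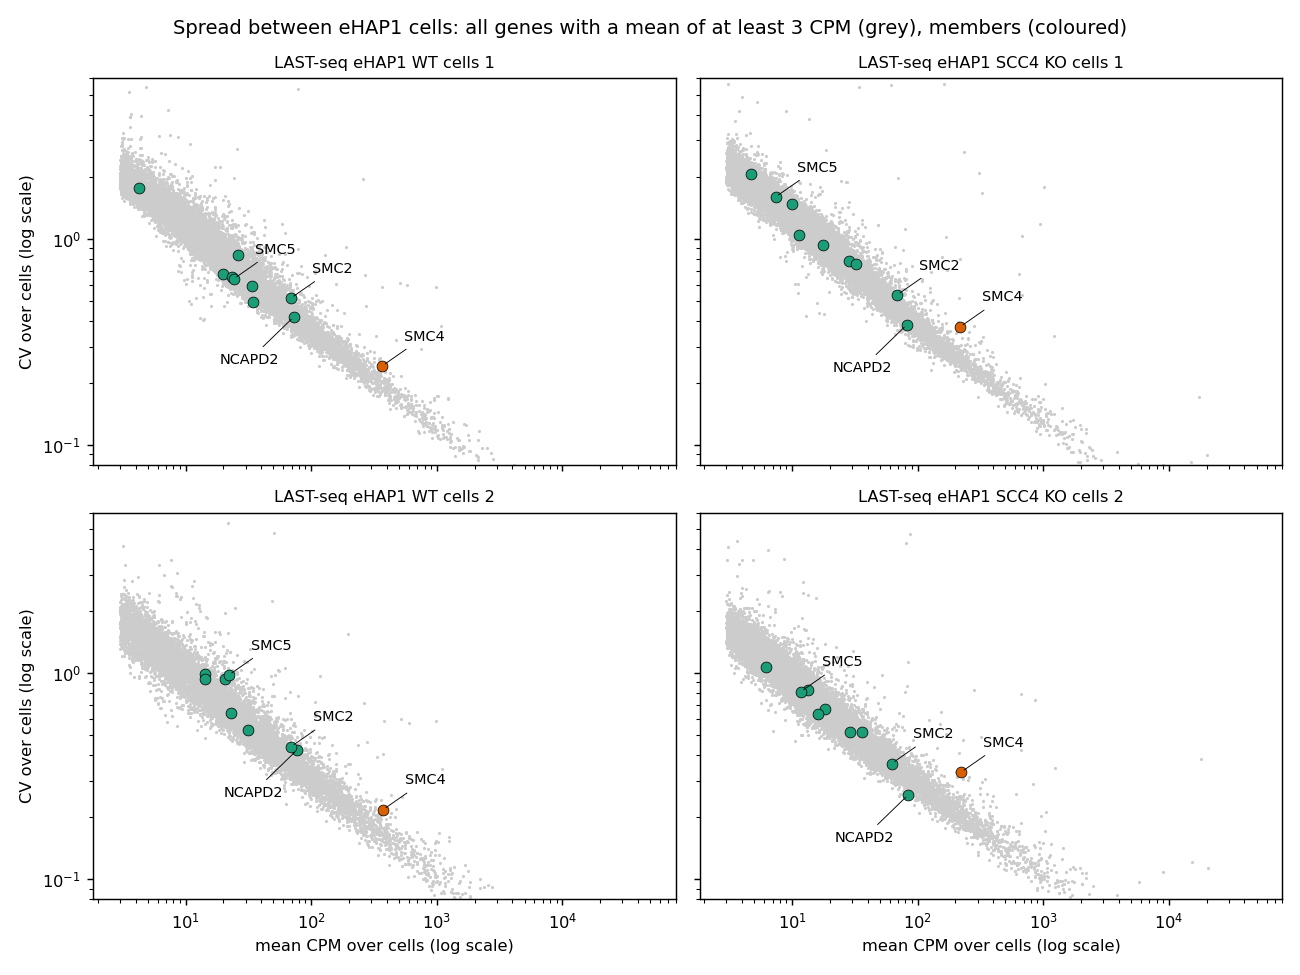
CV over cells against mean level (both log axes) in the 4 eHAP1 batches, grey for genes averaging 3 CPM or more and coloured for the 10 genes. SMC4 lies on the upper edge of the cloud in each batch and farther from it in SCC4 KO (CV 0.375 and 0.330) than in WT (0.242 and 0.217).

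**Figure D4:**
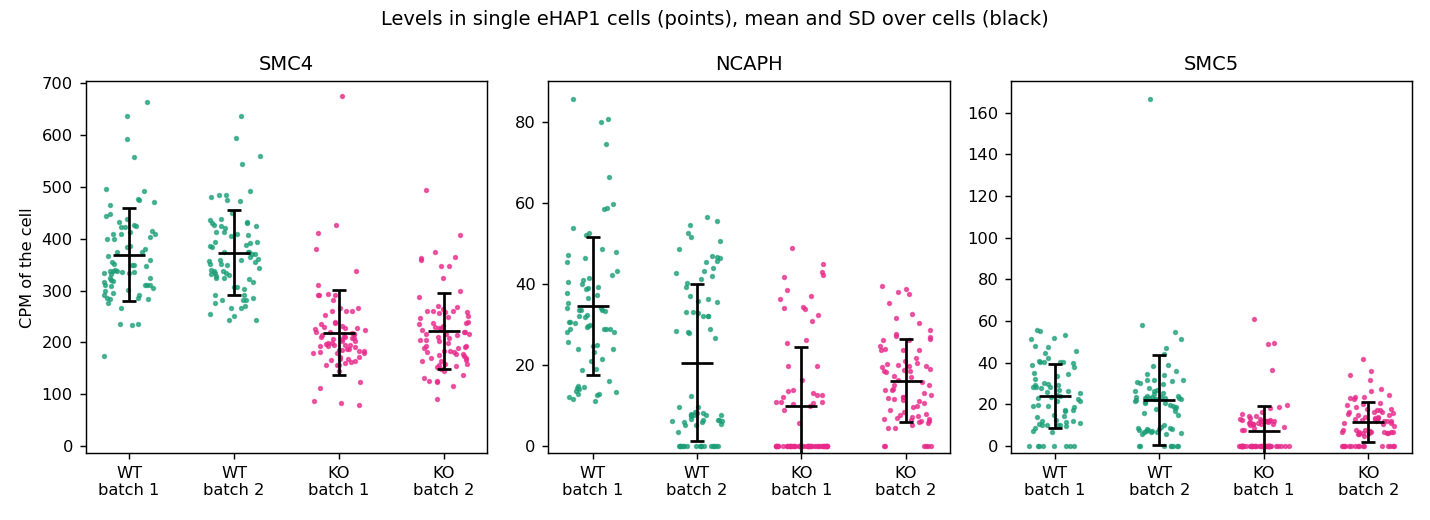
CPM of the cell for SMC4, NCAPH and SMC5 in single eHAP1 cells, 1 point per cell, with the mean and SD over cells in black. The mean of SMC4 is 369 and 373 in WT and 218 and 222 in SCC4 KO, and the NCAPH cells of WT batch 2 form separate bands with a gap between them.

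Wells of 15 pg RNA or of lysate hold no single cell, so their CVs were set beside those of the HEK293T cells for all 10 genes. In LAST-seq, 7 of the 10 genes had a lower CV in both cell libraries than over the RNA aliquots, and 2 a higher one (NCAPG and SMC6). Against the lysate wells, 6 had a lower CV and 1, SMC6, a higher one. In CEL-seq2, 7 had a lower CV in both cell libraries than over lysate and 1, NCAPD2, a higher one. SMC6 had a CV of 0.520 and 0.506 over LAST-seq cells, 0.243 over RNA aliquots and 0.402 over lysate wells. By CEL-seq2 its CV was 0.240 and 0.670 over cells and 0.889 over lysate, so the order of SMC6 was not that of LAST-seq. NCAPD2 had 0.215 and 0.243 over LAST-seq cells, 0.536 over RNA and 0.478 over lysate, but 0.354 and 0.318 over CEL-seq2 cells and 0.283 over lysate. Each library has 10 wells, the wells of RNA and lysate held fewer UMIs of most of these genes than cells did, and CVs rise as counts fall, so no difference in spread between cells and wells is read from these values.

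Correlations between the genes over cells were weak. For the 36 pairs of the genes with enough UMIs, Spearman's rho within a batch of CPM ranged from -0.355 to 0.279, with medians of 0.027 and 0.025 in WT (73 and 75 cells) and 0.016 and -0.013 in SCC4 KO (77 and 76 cells). Of the pairs, 2 had the same sign in all 4 batches and none was above 0.1 in all 4. Cells of a batch share a library and the missing numbers, and differ in depth, and no p is given. In the sum of CPM of the 8 condensin genes, SMC4 made up 365 of 617 CPM in WT batch 1 and 375 of 595 in batch 2. Its rho with the sum of the other condensin genes was 0.040 and -0.105 in WT and -0.039 and -0.162 in SCC4 KO. Values for the sum in eHAP1 are thus weighted towards SMC4. The gene most like this sum over WT cells, of 6801 genes with a mean of at least 2 UMIs, was PIANP (rho 0.222 and 0.341), followed by ABL2, KIF2C, EIF3G and TRUB1. All 5 had a mean rho of 0.258 to 0.282 in WT, and in SCC4 KO their rho lay between -0.215 and 0.109. KIF2C, a kinesin of mitosis, had -0.078 and -0.096 there. These 5 are the top of 6801 ranked values, so the size of their rho in WT follows in part from the ranking. For the whole G2 and mitosis list, the rho with the condensin sum was -0.090 and 0.040 in WT and 0.224 and -0.037 in SCC4 KO. For the S phase list it was -0.088 and -0.183 in WT and -0.013 and -0.117 in SCC4 KO. The eHAP1 cells were sorted for G1, which limits what these values can show of the cell cycle. HEK293T cells had no such gate but only 10 cells per library. There the rho with the G2 and mitosis list was 0.576 and -0.285 by LAST-seq and -0.309 and 0.382 by CEL-seq2. With the S phase list it was -0.685 and 0.006 by LAST-seq and 0.152 and 0.467 by CEL-seq2.

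Between the lines, HEK293T was compared with eHAP1 WT by LAST-seq. The lines differ in medium, in ploidy, in pool size and in sequencing depth. The G1 gate with its DNA stain and 10-deacetylbaccatin III were applied to eHAP1 alone. None of these can be told apart from the line itself. Of the 10 genes, SMC4 was called lower in HEK293T and NCAPD3 higher. Of 16158 genes tested, 14.2% were called lower, 11.2% higher and 25.4% in either direction, so 2 of 10 is near that share. Of all calls 44% were higher with TMM scaling and 58.3% with scaling to total UMIs, which moved the median of all genes from -0.08 to 0.16 (log2). The median of the 10 genes was 0.11.

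SMC4 stood at 9.83 and 27.2 CPM in the HEK293T libraries, from 14 and 41 UMIs, against 365 and 375 in eHAP1 WT. The log2 fold change was -4.56 (SE 0.31, adjusted p = 0.00027), and it was called under each alternative. All of these used LAST-seq. By CEL-seq2, HEK293T cells gave 344 and 229 CPM of SMC4, and eHAP1 was not measured by that assay. The difference of SMC4 between the lines is thus given for LAST-seq only. SMC2, the binding partner of SMC4, stood at 70.2 and 45.7 against 69.4 and 68.3 (log2 fold change -0.49, SE 0.24, adjusted p = 0.174). Of the 2 arms of the ring, SMC4 alone was called. NCAPD3 stood at 47.1 and 52.4 in HEK293T against 23.6 and 16.1 (log2 fold change 1.10, SE 0.24, adjusted p = 0.0183), and the call was lost without either WT batch (adjusted p = 0.0665 without batch 1 and 0.264 without batch 2). JAM3, which shares the end of NCAPD3, was higher too (log2 fold change 1.04, adjusted p = 0.0174). The remaining 8 were not called. The count depended on single libraries. Without either WT batch only SMC4 was called. Without the first HEK293T library 6 were called, with SMC2 and NCAPH lower and NCAPG2 and NCAPH2 higher in addition, and without the second 3 were, with SMC6 higher in addition. With all libraries, NCAPH stood at 19.7 and 12.6 against 34.2 and 21.8 (adjusted p = 0.0796) and NCAPH2 at 30.9 and 39.8 against 19.96 and 13.4 (0.0675). NCAPG2 stood at 29.5 and 67.6 against 26.1 and 23.8 (0.156), and SMC6 at 52.0 and 43.1 against 35.2 and 31.8 (0.379). The lines did not overlap in these genes, and the share of all genes without overlap was not computed. NCAPD2 (69.5 and 90.8), SMC5 (17.6 and 34.5) and NCAPG (4.21 and 5.30) overlapped eHAP1 WT or lay on both sides of it. TRIM59, opposite the end of SMC4, was higher in HEK293T (11.9 and 22.5 against 3.26 and 1.79, log2 fold change 2.54, adjusted p = 0.0201), and its part in the SMC4 values was not tested.

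The assay was compared within HEK293T, where SMC4 was low by LAST-seq and high by CEL-seq2. The 2 LAST-seq and 2 CEL-seq2 libraries of HEK293T cells gave 5 of the 10 genes lower by LAST-seq and none higher, against 9.21% of 19257 genes lower, 6.73% higher and 15.9% in either direction. The median log2 fold change was -1.22 for the 10 genes and -0.33 for all genes. Of all calls 42.2% were higher with TMM and 22.6% with scaling to total UMIs, where the median of all genes was -0.68. The replicate numbers of these libraries pair nothing.

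NCAPG gave 4.21 and 5.30 CPM by LAST-seq and 90.2 and 92.8 by CEL-seq2 (log2 fold change -3.90, SE 0.46, adjusted p = 2.79e-05). SMC4 gave 9.83 and 27.2 against 344 and 229 (-3.58, SE 0.43, adjusted p = 2.84e-05). The next were SMC5 with 17.6 and 34.5 against 124 and 109 (-1.81, adjusted p = 0.00377), SMC2 with 70.2 and 45.7 against 303 and 189 (-1.71, adjusted p = 0.00283) and SMC6 with 52.0 and 43.1 against 166 and 139 (-1.32, adjusted p = 0.0117). Without the second LAST-seq library SMC2 and SMC6 were no longer called (adjusted p = 0.0685 and 0.109). In each of these 5 genes the groups did not overlap, but of the uncalled genes they overlapped for NCAPH2 alone. The share of all genes without overlap was not computed, so this does not set the 5 apart. No condensin II subunit was called, which with 2 libraries a side does not show that they were level, and NCAPH2 was nearly level, with 30.9 and 39.8 by LAST-seq against 32.8 and 43.3. The other inputs gave the same order for SMC4: 9.02 in 15-pg RNA and 1.25, a single UMI in 797568, in lysate by LAST-seq, against 152 in lysate by CEL-seq2. The 2 CEL-seq2 libraries themselves differed in SMC2 and SMC4, as these values show, by more than counting error (squared difference over variance 39.5 and 34.4).

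The read tables of the single HEK293T cells give the number of sequencing reads behind each UMI. Over genes with at least 10 UMIs the median was 4.23 and 4.01 reads per UMI in the LAST-seq libraries, with a 95th percentile of 8.55 and 7.51, and 2.34 by CEL-seq2. SMC4 had 33.8 and 28.9 reads per UMI by LAST-seq, above 99.7% and 99.8% of genes, and 2.84 by CEL-seq2. Almost all of this excess sat in few wells: 1 cell of the first library held 432 of the 473 reads on 2 UMIs, and 3 cells of the second held 1073 of the 1185 reads on 18 UMIs. In the other cells SMC4 had 3.42 and 4.87 reads per UMI, as other genes did. SMC2 had 9.55 in the first library, with 599 of 955 reads in 2 cells, and 5.70 in the second. The other 7 genes with at least 10 UMIs lay between 2.12 and 5.02. Counted in reads, SMC4 stood at 68.8 and 175 CPM of reads by LAST-seq and at 360 in the 1 CEL-seq2 library whose reads were used. The gap between the assays was thus smaller in reads than in UMIs, but only through the few cells named above. The other cells of the LAST-seq libraries held 41 and 112 reads of SMC4, against 1515 over the CEL-seq2 library.

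**Figure D5:**
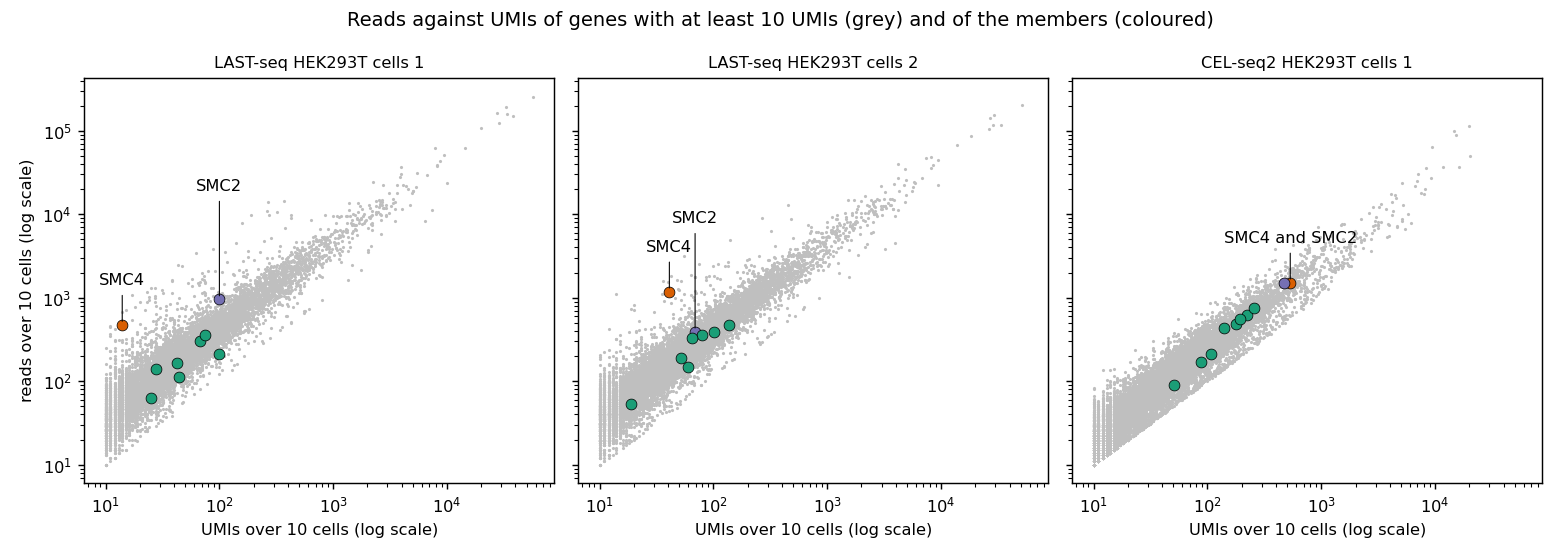
Reads against UMIs per gene (log axes), summed over the 10 cells of a library, grey for genes with at least 10 UMIs and coloured for the members. SMC4 lies above the cloud in both LAST-seq libraries (473 reads on 14 UMIs and 1185 on 41) and within it by CEL-seq2 (1515 on 534).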

How the data were processed

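UMI tables of 9 samples were analysed. As deposited by the authors, they hold whole-number UMI counts for each gene in each well, not scaled to depth, and read counts stand beside them for single HEK293T cells. Per the labels and the study's methods, reads were demultiplexed with bcl2fastq 2.20 and aligned to GRCh38 with the spike-in sequences by zUMIs. They were then counted in exons and collapsed by UMI sequence. The methods also name subsampling of reads to equal depth across the assays. Whether this holds for each deposited table is not stated, and cells of eHAP1 WT batch 2 held 18004 to 925612 UMIs. For the eHAP1 tables, numbers were missing between held values, and batches were closer than counting error allows for genes with at least 1000 UMIs and farther apart below that. The sources used here do not say how this arose. The tables were analysed as counts, since they are whole and keep each cell's depth. SMART-seq tables hold no UMIs and were not used here, and the authors' burst parameters were not used.

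The members and lists were chosen with earlier results of these data known. Ensembl identifiers were given symbols by GENCODE, in a release newer than that of the study, and 99.6% of them matched. Cells were summed per library, the eHAP1 batch being the number at the head of the column name. Spike-in species, 0% to 3.86% of UMIs, were left out. Genes averaging 0.1 UMI or more per cell were tested with edgeR 4.0.16 (quasi-likelihood, TMM, Benjamini-Hochberg over all genes tested, threshold 0.05, two-sided), in R 4.3.3. The SE of a log2 fold change was taken from the quasi-likelihood F. Folds per batch used 0.5 added UMIs and an exact conditional binomial interval. The genes named were all members, MAU2, the 6 list genes with the largest change among those called (and NSMCE3, named after its value was seen, as the only lower one of its list, and the genes called higher in the cell cycle lists, also named after their values were seen), the 5 genes most like the condensin sum over WT cells, and genes overlapping a member. Alternatives were DESeq2 1.42.0, scaling to total UMIs, no filter, thinning to 40000 UMIs per cell (1 shallower cell left out), leaving out cells under 50000 UMIs or 1 library, the batch number as a replicate block and, chosen after seeing the data, limma 3.58.1 on log2 of CPM + 1. Scripts were tested on simulated counts with few changed genes. The median fold change by edgeR lay near the simulated one, but in each comparison many true changes were not called, and in LAST-seq against CEL-seq2 edgeR called none of them, so a gene that was not called may still differ. Cells were sorted singly, no doublet caller was run, and well barcodes recur in libraries because plates share them. Same-numbered batches of the 2 genotypes did not deviate together (r = 0.020 over all genes tested). A batch correction would take out such a shared deviation, and whether the values had passed through one is not stated. This r therefore cannot decide whether the number is a pairing, and the folds per batch set same-numbered batches side by side without that knowledge.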

Additional observations from a re-analysis of the deposited data

Results flagged for a closer look

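Read tables, on which no test was run, held a signal above that of other genes for 2 members. SMC4 had 33.8 reads per UMI in the first and 28.9 in the second LAST-seq library of HEK293T cells, and SMC2 had 9.55 in the first, each above the 95th percentile of genes with at least 10 UMIs (8.55 and 7.51). For SMC4, 91.3% of the reads in the first library lay in 1 cell and 90.5% of those in the second in 3 cells. The cause was not tested. Differences in UMIs between LAST-seq and CEL-seq2 for SMC4 stand beside this.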

How the results depend on the processing

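SMC4 kept its direction and its call in SCC4 KO against WT and in HEK293T against eHAP1 WT under every alternative run. The latter call rests on LAST-seq alone, by which SMC4 was far lower in HEK293T cells than by CEL-seq2. In SCC4 KO against WT, the members called ranged from 1 (without WT batch 1, where NCAPH and SMC5 were lost) to 4 when 1 batch was left out, and were 3 or 4 otherwise, the fourth being NCAPD3 or, with scaling to total UMIs, NCAPD2 (log2 fold change 0.15, adjusted p = 0.0202). NCAPD3 passed with DESeq2, limma, no filter, thinning and the block, and without WT batch 2, with adjusted p-values between 0.0247 and 0.0483. With the batch number as a replicate block, 4 members and 4948 genes were called, against 3 and 4420. Over all genes, 6871 were called with no filter and 2930 after thinning. SMC6 turned to 0.036 with scaling to total UMIs and 0.018 after thinning, and ranged from -0.053 to 0.031 with 1 batch left out, and NCAPH2 from -0.16 to 0.31; neither was ever called. In HEK293T against eHAP1 WT, 5 members were called with no filter, and 1 to 6 members and 2507 to 6456 genes with 1 library left out, against 2 and 4105. Uncalled values changed sign for NCAPD2 (0.10 with scaling to total UMIs, -0.27 to 0.040 with 1 library left out), SMC5 (0.20, and -0.53 to 0.37) and NCAPG (-1.46 after thinning, and -0.11 to 1.40). In LAST-seq against CEL-seq2, 3 to 5 members were called with 1 library left out, and 1963 genes with limma against 3070. NCAPH2 turned to -0.11 with scaling to total UMIs and -0.070 after thinning, and ranged from -0.032 to 0.54, and NCAPG2 from -1.09 to 0.062. The number of members with a higher CV in SCC4 KO in both batches was 0 without scaling and 3 without cells under 50000 UMIs, against 1. Members with a lower share of cells with a UMI in both SCC4 KO batches were 2 after thinning (NCAPD3 and SMC5), against 1, and those with a higher share 3 (NCAPD2, NCAPG2 and SMC2), against 1. The cause of these differences was not tested. Depth limits NCAPG, with 18 to 73 UMIs per eHAP1 batch, and SMC4 by LAST-seq in HEK293T, with 14 and 41 UMIs.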
